A study of Rattus norvegicus with 24 samples.

Results

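The myogenic genes followed here in the tibialis anterior of resistance-trained rats were 6: the 4 myogenic regulatory factors Myod1, Myf5, Myog and Myf6, and the satellite cell genes Pax7 and Cdh15. They were taken by symbol from a table of 20027 transcripts that carries 15273 gene symbols, in which they fill 7 transcript rows, and the 2 Myog rows were summed. The RNA was total RNA of whole muscle from adult male Wistar rats, enriched for poly-A transcripts. An implanted pulse generator trained the left muscle once a day against its own antagonists for 2, 10, 20 or 30 days, the right muscle of the same rat was left unstimulated, and both were taken 1 h after the last bout. The files hold 3 rats per time point, 12 trained and 12 contralateral muscles. All rats carried the implant, so the contralateral muscle is a control from an animal that trained and not from an untrained one. The question was whether these genes differed between the 2 muscles 1 h after a bout, and whether the difference changed with the days of training. No trained muscle was taken at rest, so an effect of the last bout and one of the earlier training cannot be told apart.

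The myogenic regulatory factors are basic helix-loop-helix transcription factors that pair with E proteins, bind the E-box and switch on muscle genes. Pax7 marks satellite cells, the stem cells that lie against the fiber, and Cdh15 (M-cadherin) is an adhesion molecule at the contact between satellite cell and fiber. Myf5 and Myod1 are known for the commitment and division of myoblasts, Myog for their final differentiation, and Myf6 (MRF4) is the family member that mature fibers express most, so that RNA of Myf6, Myog and Myod1 in whole muscle can come from fiber nuclei as well as from satellite cells. In such bulk RNA, a change in the number of cells of a type and a change in RNA per cell cannot be told apart.

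Levels are given as the deposited TPM-type values (reads per transcript length, scaled to a common total per library) divided by a factor per library that ranged from 0.778, in 1 contralateral muscle at 30 days, to 1.14, and a difference is a difference of log2(level + 1), which understates the change of genes with low levels. Positions are those of rn6. Myod1 lies on chromosome 1 from 102396538 to 102399248 on the plus strand, Myog on chromosome 13 from 51126459 to 51129048 (plus), Cdh15 on chromosome 19 from 55669626 to 55689992 (plus) and Pax7 on chromosome 5 from 158214616 to 158313426 (minus). Myf5 (chromosome 7, 49729533 to 49732764) and Myf6 (chromosome 7, 49739646 to 49741540) are neighbours on the minus strand, 6.9 kb apart.

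The 250 bases before the transcription start were read for 5 of the 6 genes from RefSeq promoter sequences of the GRCr8 build. Those of Myog and Myf6, the pair of genes with the largest rise, and of Myf5, the neighbour of Myf6, are shown 5′ to 3′ with E-boxes (CANNTG, the same on both strands) in capitals. They lie at chr13:48297226-48297475 (plus strand), chr7:44701314-44701563 (minus) and chr7:44692639-44692888 (minus).
Myog: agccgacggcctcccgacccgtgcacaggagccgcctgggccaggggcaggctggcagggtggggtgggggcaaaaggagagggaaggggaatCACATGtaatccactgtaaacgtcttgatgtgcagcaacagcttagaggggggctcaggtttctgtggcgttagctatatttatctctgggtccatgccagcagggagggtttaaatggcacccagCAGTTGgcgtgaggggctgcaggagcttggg
Myf6: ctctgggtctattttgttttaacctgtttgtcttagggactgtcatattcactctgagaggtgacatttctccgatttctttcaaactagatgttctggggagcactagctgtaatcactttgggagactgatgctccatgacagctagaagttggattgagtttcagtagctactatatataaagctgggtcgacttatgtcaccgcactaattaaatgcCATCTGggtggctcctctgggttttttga
Myf5: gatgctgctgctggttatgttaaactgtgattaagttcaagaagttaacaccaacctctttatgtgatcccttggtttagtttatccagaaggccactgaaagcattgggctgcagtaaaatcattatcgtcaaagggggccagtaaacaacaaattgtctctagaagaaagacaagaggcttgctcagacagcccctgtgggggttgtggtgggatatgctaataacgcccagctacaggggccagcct
The Myog window held 2 E-boxes, CACATG beginning 157 bases and CAGTTG beginning 31 bases before the start. Of 33465 rat windows of this length, 30.8% held at least 2 E-boxes and 65.5% at least 1. The Myf6 window held 1, CATCTG at 29 bases, and also 1 match to the MEF2 motif, ctatatataa, beginning 76 bases before the start, a motif with a match in 2.96% of windows on either strand. The Cdh15 window held 3 E-boxes (at least 3 in 11.5% of windows), and those of Myf5 and Pax7 held 0. Only exact matches to the letters of the motif were counted, so near matches, such as ctatatttat in the Myog window, were not. The counted matches describe the letters of 1 short window and are not evidence of binding.

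The genes differed widely in abundance, and 1 of them was too low to judge. Whole reads could be recovered from the steps between low values for 10234 genes, which had 2043184 to 3647162 reads per library. They included the 5 genes with 1 transcript and, from the gene-level table, Myog, whose 2 transcript values are fractional estimates. Myf6 was read most, with 489 to 2866 reads per library and a mean level of 93.0 ± 43.5 (SD, n = 24 muscles). Myod1 followed with 201 to 584 reads and a level of 20.8 ± 6.10, then Myog with 40 to 445 reads (8.44 ± 6.88) and Cdh15 with 32 to 175 reads (4.36 ± 1.33). Myf5 had 3 to 28 reads per library and a level of 0.705 ± 0.370, and Pax7 had 0 to 10 reads and a level of 0.269 ± 0.168. Neighbours in this order overlapped between muscles except that Myf6 lay above Myod1, and Cdh15 above Myf5, in every library.

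**Figure D1:**
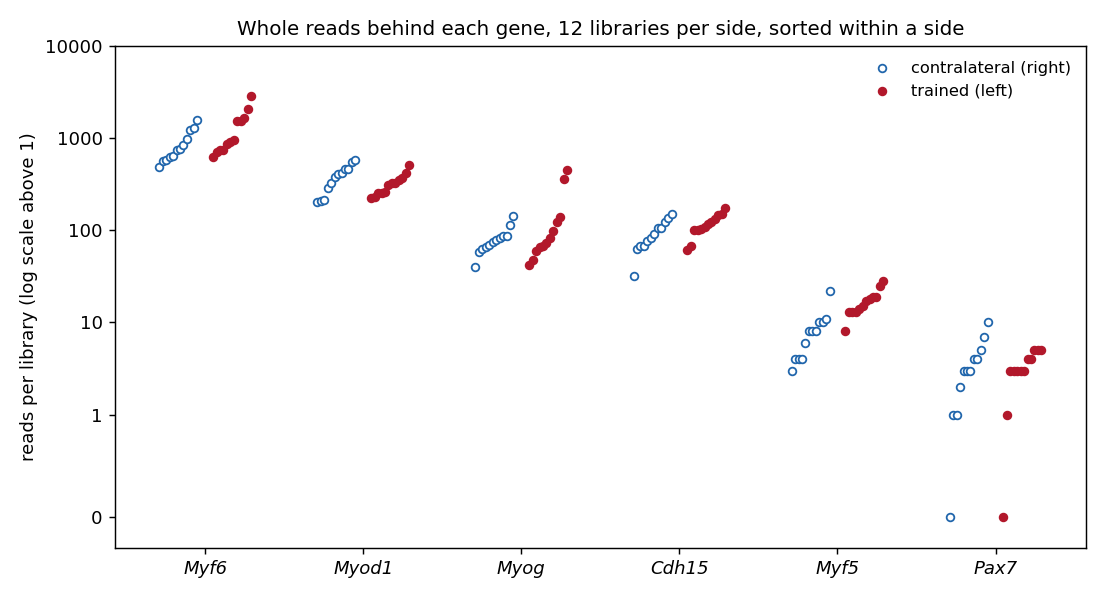
Whole reads per library for each gene on a scale that is logarithmic above 1 read, with 12 contralateral (open) and 12 trained (filled) libraries per gene. Pax7 lies between 0 and 10 reads and Myf5 between 3 and 28, while the other 4 genes have at least 32 reads in every library.

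A gene was called too low to judge if it reached a level of 1 in fewer than 3 muscles or had a mean under 1 in every group. By this rule Pax7 could not be judged: its levels ran from 0 to 0.729, it reached 1 in 0 of 24 muscles, and its highest group mean was 0.494. The Pax7 reads of the 12 trained muscles summed to 39 and those of the 12 contralateral muscles to 43, a ratio of 0.873 per unit of scaled depth with an exact 95% interval of 0.551 to 1.38 that covers counting error only. Its trained muscles were read 6, 12, 9 and 12 times per group of 3 at 2, 10, 20 and 30 days, and the contralateral muscles 4, 7, 15 and 17 times. One trained muscle at 2 days and 1 contralateral muscle at 10 days had 0 reads, which allows up to 3. A change in Pax7 was therefore not detectable at this depth. The interval pools the 4 time points and leaves out the variation between rats, so it does not bound a change at any of them. Intervals for counting error at single time points were wider: 0.332 to 6.74, 0.641 to 5.29, 0.226 to 1.43 and 0.280 to 1.43 at 2, 10, 20 and 30 days. Myf5 stood at the edge of the rule, with a level of at least 1 in 5 muscles. Of these 5 muscles 4 were trained, so that it passed the filter only through the side on which it was higher. It is therefore left out of the counts of called genes, its tests are those of the fit with no filter unless stated, and its values rest on few reads.

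Each trained group of 3 was compared with the 12 contralateral muscles in 1 limma fit over 11196 genes, so that all 4 comparisons share their controls. The 2 muscles of a rat were also compared within the animal, with animal as a block, and that value is given where it changes the call. Without Myf5, 4 genes remained. After 2 days 2 of these 4 were higher in trained muscle at an adjusted p under 0.05 in limma, Myog and Myf6, in both fits, where 28.9% of all genes were called and 15.4% called higher (21.6% called within animals). After 10, 20 and 30 days limma called 0 of the 4 against the 12 controls (Cdh15 at 10 days within animals), with an unadjusted p under 0.05 for Myf6 at 10 days and Cdh15 at 20 days only, and limma-voom on the recovered reads also called 0. Of all genes 28.9%, 21.4% and 20.6% were called at these time points, 15.6%, 11.7% and 11.1% higher and 13.3%, 9.64% and 9.46% lower.

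**Figure D2:**
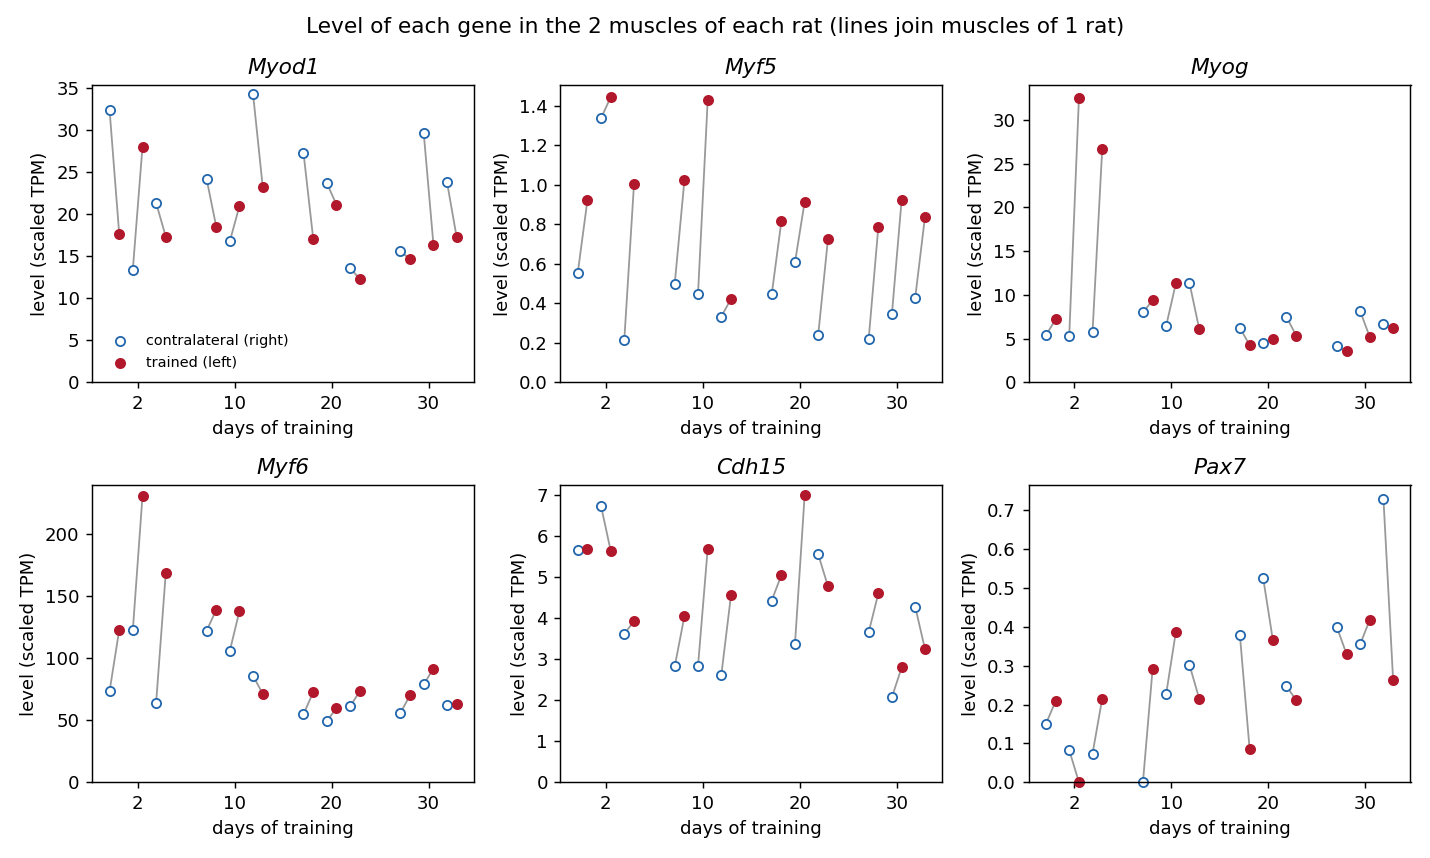
Level (scaled TPM, linear axis from 0) of each gene in the contralateral (open) and trained (filled) muscle of each of 3 rats per time point, with a line joining the 2 muscles of a rat. Myog reached 26.7 and 32.6 in 2 trained muscles at 2 days against at most 11.4 in any contralateral muscle, and Myf5 was higher on the trained side in 12 of 12 rats.

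Myog, the factor of terminal differentiation, rose after 2 days of training. Its levels in the 3 trained muscles were 7.20, 32.6 and 26.7, against 5.43, 5.34 and 5.74 in the right muscles of the same rats. Every trained muscle lay above the 3 right muscles of that time point, a separation seen in 35.5% of all genes, and 2 of 3 lay above all 12 contralateral muscles (4.16 to 11.4), while the muscle of the first rat remained within their range. The difference from the 12 controls was 1.41 ± 0.28 (SE) on the log2 scale, 2.65-fold (limma, adjusted p = 5.18e-04). It was 2.04 without the first rat's trained muscle and 1.02 without the second's, and called in both cases. After 10 days the trained levels of 9.40, 11.3 and 6.14 lay among those of the right muscles (8.0, 6.51 and 11.4), with a difference of 0.39 ± 0.28 (adjusted p = 0.33 in limma). After 20 days the trained muscles held 4.28, 4.96 and 5.36 against 6.24, 4.54 and 7.49 (-0.34, adjusted p = 0.429 in limma). After 30 days they held 3.62, 5.16 and 6.20 against 4.16, 8.16 and 6.63 (-0.33, adjusted p = 0.442 in limma). The groups overlapped at these 3 time points, and the trained muscle was lower in 3 of 3 rats at 30 days.

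Myog has 2 annotated transcripts over the same span, and how reads are shared between them is an estimate of the quantification. At 2 days the transcript listed first stood at 30.9 and 24.8 in the trained muscles of the last 2 rats against 5.11 and 5.69 in their right muscles, and the other at 1.68 and 1.84 against 0.230 and 0.0458. The share of the other transcript in the summed level ranged from 0.35% to 50.9% over the 24 muscles. In the first rat at 2 days the first transcript was 4.99 in the trained and 5.29 in the right muscle, so that its higher sum came from the other one (2.21 against 0.141).

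Myf6, the regulatory factor of mature fibers, also rose after 2 days. The trained muscles held 123, 230 and 169 and the right muscles of the same rats 73.1, 122 and 63.6. All 3 trained values lay above the 12 contralateral ones, which ranged from 49.0 to 122, a separation seen in 14.7% of all genes. The difference was 1.17 ± 0.25 (SE), 2.25-fold (limma, adjusted p = 0.00103), and 1.01 ± 0.15 within animals (adjusted p = 3.21e-04 in limma).

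The trained levels of Myf6 at 10 days were 139, 138 and 71.1, of which the first 2 lay above all controls and the last did not (18.1% of all genes separated fully), and the right muscles held 122, 106 and 85.6. The difference of 0.57 ± 0.25 missed the threshold (limma, adjusted p = 0.0912) and was 0.10 within animals (0.672). It passed when the values were taken as deposited (0.69, adjusted p = 0.0431), in the gene-level table (0.65, 0.0425) and without the last trained muscle (0.89, 0.0213), each in limma. At 20 and 30 days the trained muscles lay between 59.7 and 91.5 and the right muscles between 49.0 and 78.8. Against all 12 controls these differences were -0.12 (adjusted p = 0.782 in limma) and -0.01 (0.993), and within animals 0.31 (0.166) and 0.19 (0.454), a change of sign with no call on either side. The contralateral level of Myf6 itself averaged 86.3, 104, 54.9 and 65.6 over the 4 time points, which did not pass the limma F test (unadjusted p = 0.0137, adjusted p = 0.427).

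Myf5, a factor of myoblast commitment, was higher on the trained side in every rat, at levels near the limit of the data. At 2 days the trained muscles held 0.922, 1.44 and 1.00 and the right muscles 0.554, 1.34 and 0.216, so that the groups overlapped. The difference from the 12 controls was 0.54 ± 0.15 (limma with no filter, adjusted p = 0.0105). In the filtered limma fits it lost the call within animals (0.36, adjusted p = 0.088) and without the trained muscle of the rat with 1.44 (0.44, 0.112). At 10 days the trained levels were 1.02, 1.43 and 0.422 and those of the right muscles 0.499, 0.447 and 0.333, a difference of 0.40 ± 0.15 that was not called with no filter (limma, adjusted p = 0.0563) and lay at the threshold with it (0.0491, and 0.0533 within animals).

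At 20 days the 3 trained Myf5 levels (0.816, 0.914 and 0.725) lay above the right muscles (0.445, 0.607 and 0.243), as they did at 30 days (0.789, 0.924 and 0.835 against 0.220, 0.348 and 0.429). Such a separation of 3 from 3 was seen in 31.9% and 28.5% of all genes. The differences of 0.33 and 0.35 were not called (limma with no filter, adjusted p = 0.151 and 0.12). Within animals, with the filter, the one at 30 days was 0.48 (limma, adjusted p = 0.0466, with 12.3% of all genes called). Myf5 entered that filtered fit only through its trained muscles, so no conclusion is drawn from this call. In limma-voom with animal as a block the difference at 30 days was not called (adjusted p = 0.109). Summed over the 3 muscles of a group, the Myf5 reads numbered 65, 52, 44 and 41 in trained muscle from the shortest to the longest training and 36, 24, 23 and 15 in the right muscles. These sums are not scaled for depth, which differed between libraries, so no trend over time is read from them.

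Myod1, the other commitment factor, was not called at any time point, and its levels were lower on the trained side in 10 of 12 rats. The 12 trained muscles ranged from 12.3 to 28.0 with a median of 17.5, and the 12 contralateral muscles from 13.4 to 34.2 with a median of 23.7. The differences were -0.10, -0.08, -0.40 and -0.43 at 2, 10, 20 and 30 days, each ± 0.23 (limma, adjusted p = 0.785, 0.843, 0.241 and 0.196). With 95% intervals from -0.57 to 0.38 at 2 days and from -0.91 to 0.05 at 30 days, neither a fall nor the absence of one can be read from a single time point. The SD was 7.11 over the 12 contralateral and 4.14 over the 12 trained muscles. At 2 days the right muscles held 32.4, 13.4 and 21.3 and the trained muscles 17.6, 28.0 and 17.3, and the groups overlapped.

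Cdh15, the satellite cell cadherin, lay between 2.07 and 7.0 in all muscles. At 10 days its trained levels of 4.04, 5.69 and 4.55 were each above the right muscles of the same rats (2.82, 2.83 and 2.60), a separation of 3 from 3 seen in 34.6% of all genes. Those 3 right muscles were among the 4 lowest of the 12 controls, which reached 6.73. Against the 12 controls the difference at 10 days was 0.26 ± 0.21 (limma, adjusted p = 0.387), and within animals 0.61 ± 0.18 (adjusted p = 0.0293, with 20.1% of all genes called). With the 3 right muscles of that time point as controls and no block it was 0.61 as well and not called (limma, adjusted p = 0.0575). The contralateral groups did not pass the limma F test for Cdh15 (unadjusted p = 0.014, adjusted p = 0.427). At 2, 20 and 30 days the groups overlapped, with differences of 0.33, 0.45 and -0.09 (limma, adjusted p = 0.243, 0.132 and 0.796).

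**Figure D3:**
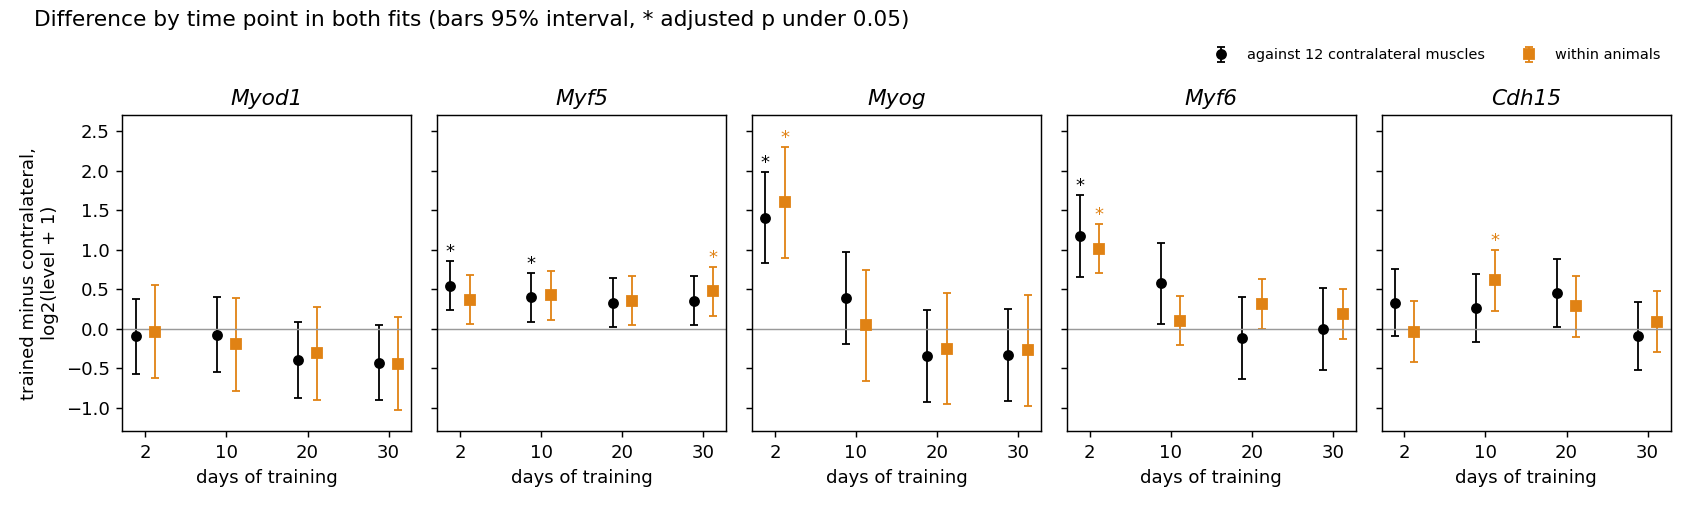
Difference of trained from contralateral muscle in log2(level + 1) at each time point for the 5 genes that passed the filter, against all 12 contralateral muscles (circles) and within animals (squares), with 95% intervals and an asterisk at an adjusted p under 0.05. Myog and Myf6 are called in both fits at 2 days (1.41 and 1.17 against the 12 controls). At its time point each asterisk of Myf5 and Cdh15 stands in 1 of the fits only. Both fits are filtered, and Myf5 passed the filter only through its trained muscles, so no conclusion is drawn from its asterisks. Against the 12 controls with no filter Myf5 is called at 2 days only (limma, adjusted p = 0.0105).

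Taken over all 12 rats as the mean of the 4 time points, within animals, 2 of the 4 genes were higher in trained muscle (Myf6 and Cdh15), where 43.4% of all genes were called, 21.2% higher and 22.2% lower. Myf5, not counted here, differed by 0.40 ± 0.07 in the fit with no filter (limma, adjusted p = 7.05e-04) and was higher in 12 of 12 rats, as 8.45% of the genes that passed the filter were. With a pseudocount of 0.1 in place of 1 this Myf5 difference was 0.94, and its summed reads were more in trained muscle, a ratio per unit of scaled depth of 1.99 with an exact 95% interval of 1.55 to 2.55 for counting error only. Myf6 was higher by 0.40 ± 0.07 (adjusted p = 5.61e-04 in limma) and in 11 of 12 rats (13.5% of all genes), with its largest difference at 2 days. Cdh15 was higher by 0.24 ± 0.09 and in 9 of 12 rats (25.3% of all genes), with a call at the threshold (limma, adjusted p = 0.0494, and 0.0166 to 0.119 on leaving out each rat in turn). Myog (0.28 ± 0.16, limma, adjusted p = 0.188) was higher in 6 of 12 rats, and passed without the first rat at 2 days (0.43, adjusted p = 0.0119). Myod1 (-0.25 ± 0.14, 0.159) was lower in 10 of 12 rats, as 20.5% of all genes were, and passed without the second rat at 2 days (-0.38, adjusted p = 0.00964 in limma).

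Between the trained muscles of different time points, Myog and Myf6 differed. Among the 4 trained groups the limma F test called Myog (adjusted p = 0.00378) and Myf6 (0.0208), where 12% of all genes were called, and not Cdh15 (0.447), Myod1 (0.682) or Myf5 (0.813). Mean Myog in trained muscle was 22.1 ± 13.3, 8.96 ± 2.63, 4.87 ± 0.548 and 4.99 ± 1.30 after 2, 10, 20 and 30 days (SD, n = 3 muscles each). Its contrasts with the group at 2 days were -1.75 at 20 days and -1.74 at 30 days (limma, adjusted p = 0.00292 and 0.00182, with 8.05% and 15% of all genes called), and the step of -1.02 from 2 to 10 days missed the threshold (0.149, 1.93% of all genes). Mean Myf6 was 174 ± 54.1, 116 ± 38.7, 68.4 ± 7.53 and 74.9 ± 14.8 in the same order, and its contrasts with 2 days were -1.29 at 20 days and -1.17 at 30 days (limma, adjusted p = 0.0122 and 0.0138). When instead the within-animal difference was compared between time points, an F test called 0 of the 5 genes and 1.14% of all genes (limma, adjusted p = 0.101 for Myog and 0.0884 for Myf6, unadjusted p = 0.00354 and 0.00252). The contrast of 30 with 2 days alone was called for Myog (-1.87, adjusted p = 0.0485 in limma) and just missed for Myf6 (-0.83, 0.0508), where 314 of 11196 genes were called. The contrast of 20 with 2 days lost its call for both, with -1.85 for Myog and -0.70 for Myf6 (limma, adjusted p = 0.0599 and 0.0936). In the contralateral muscles 0 of the 5 genes were called over time (limma F test, adjusted p = 0.427 to 0.977, unadjusted p under 0.05 for Myf6 and Cdh15), where 0.152% of all genes were called.

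Across the 24 muscles Myog and Myf6 varied together (Pearson r = 0.77 of the log2 levels), as did Myf5 and Myf6 (0.66), while r was -0.01 for Cdh15 and Myog. These are descriptions over libraries that include both muscles of each rat. Among 5864 other genes with a mean level of at least 5, those most like Myog were Tmem185a (r = 0.916), Gadd45a (0.915), a stress-response gene, and Cdc37l1 (0.883). Those most like Myf6 were Dnajb5 (0.856), a heat shock cochaperone, Nexn (0.851), an actin-binding protein of the Z-disc, and Cnbp (0.841). The nearest to Myf5 were Rgcc (0.826), Prelid1 (0.815) and the immediate early gene Ier2 (0.806). For Cdh15 they were Dnlz (0.709), the focal adhesion protein Pxn (0.684) and Retreg2 (0.661), and for Myod1 Banp (0.678) and AABR07057196.1 (0.673).

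Genes known to work beside the 6 were read from fixed lists, whose counts stand against 15.4%, 15.6%, 11.7% and 11.1% of all genes called higher after 2, 10, 20 and 30 days. Which list genes passed the filter only through trained muscle was not separated, either for the counts or for the single genes named. Of 24 other satellite cell genes 21 were tested, and 8, 11, 8 and 6 of them were higher at these time points and 2, 0, 0 and 0 lower. Their median differences were 0.09, 0.48, 0.36 and 0.20, and the all-gene medians lay between -0.03 and -0.01. The laminin receptor subunit Itga7 was higher at 2 days (1.67), 10 days (1.09) and 20 days (0.51, limma, adjusted p = 0.0422 and 0.117 within animals). The heparan sulfate proteoglycan Sdc4 was higher at every time point (1.27 to 1.61), as were the tetraspanin Cd82 (0.59 to 1.30, with an adjusted p of 0.0538 within animals at 30 days in limma) and the Notch target Hes1 (0.51 to 1.11, of which only the value at 20 days was called within animals). Both lower genes at 2 days were Chodl (-0.75) and the growth factor antagonist Spry1 (-0.57), named after their values were seen. Many of these surface proteins are also made by other cells of muscle.

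Among 24 partners and inhibitors of the factors 19 were tested, with 5, 6, 8 and 2 higher (15.4%, 15.6%, 11.7% and 11.1% of all genes) and medians of 0.03, 0.13, 0.07 and 0.20. The count at 30 days is close to the share of all genes. Lower genes numbered 2, 2, 2 and 1 (13.5%, 13.3%, 9.64% and 9.46% of all genes). Within animals 5 genes were higher and 3 lower at 20 days, where 17.4% of all genes were called. Id proteins bind E proteins and keep them from the myogenic factors, and Id4 was higher at every time point, by 1.46, 1.91, 2.44 and 2.26 (limma, adjusted p from 1.11e-10 to 2.88e-07). Its level rose from 1.24 ± 0.354 in the 12 contralateral muscles (SD) to 11.1 ± 1.56 in the 3 trained muscles at 20 days, with 9.60 as the lowest of these and 1.83 as the highest control. Id1 and Id3 were higher at 2, 10 and 20 days (0.72 to 1.12 and 0.63 to 1.04, with Id3 at 10 days not called within animals), and so was the repressor Snai1 (0.73 to 1.15). Among the genes that were lower were the homeobox factor Six4 at 2 and 10 days (-0.58 and -0.57, neither called within animals) and the transcriptional cofactor Eya1 at 20 days (-0.42), named after their values were seen.

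Of 14 myoblast fusion genes 8 were tested, with 6, 5, 3 and 3 higher (15.4%, 15.6%, 11.7% and 11.1% of all genes), 0 lower and medians of 0.54, 0.72, 0.35 and 0.31. Mymk (myomaker), the membrane protein of myoblast fusion, was higher at 10 days (1.04, limma, adjusted p = 9.94e-05) and marginally at 2 days (0.48, adjusted p = 0.0474, and 0.0548 within animals). The membrane repair protein Dysf was higher at 2 days (1.63) and 10 days (0.84), and the tetraspanins Cd9 (0.60 to 1.04) and Cd81 (0.34 to 0.82) at all 4 time points. Of 20 genes of early muscle differentiation 19 were tested, with 9, 11, 4 and 5 higher (against the same shares of all genes) and 0, 1, 0 and 0 lower, and medians of 0.70, 0.99, 0.33 and 0.21. Within animals the last time point had 1 higher and 1 lower, where 12.3% of all genes were called. Klhl40, a protein that stabilizes thin filament components, was 10.7-fold higher at 2 days (3.42 ± 0.17) and still higher at 30 days (1.53). Its levels were 342 to 599 in the trained muscles at 2 days and 33.1 to 48.6 in the 12 contralateral muscles. Mybph, a myosin binding protein, was higher at 2 and 10 days (2.44 and 1.92), and the neonatal myosin Myh8 (1.54) and the cell cycle inhibitor Cdkn1c (1.51) from 10 days on, except that Myh8 was not called at 20 days (0.62, limma, adjusted p = 0.0507) and neither was called within animals at 30 days. The lower gene at 10 days was Lmod3 (-0.36), not called within animals and named after its value was seen.

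Of 19 genes of dividing cells 13 were tested, and 12, 10, 7 and 3 were higher (15.4%, 15.6%, 11.7% and 11.1% of all genes) and 0, 0, 1 and 1 lower, with medians of 0.81, 0.59, 0.42 and 0.20. Genes that passed the filter only through trained muscle were not separated. No excess over the shares of all genes is therefore read from these counts, and the calls of single genes below carry the same limit. Within animals 1 was higher and 1 lower at 30 days, where 12.3% of all genes were called. The mitotic kinase Cdk1 (1.10, 1.32 and 1.20), Aurkb (1.05, 1.20 and 0.46) and Top2a (1.07, 1.14 and 0.65) were higher at 2, 10 and 20 days, and Ccnd1 at all 4 (0.77 to 1.30). The lower gene at 20 and 30 days was the replication factor Mcm7 (-0.44, not called within animals, and -0.52), named after its values were seen. Which cells divide cannot be read from whole muscle.

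**Figure D4:**
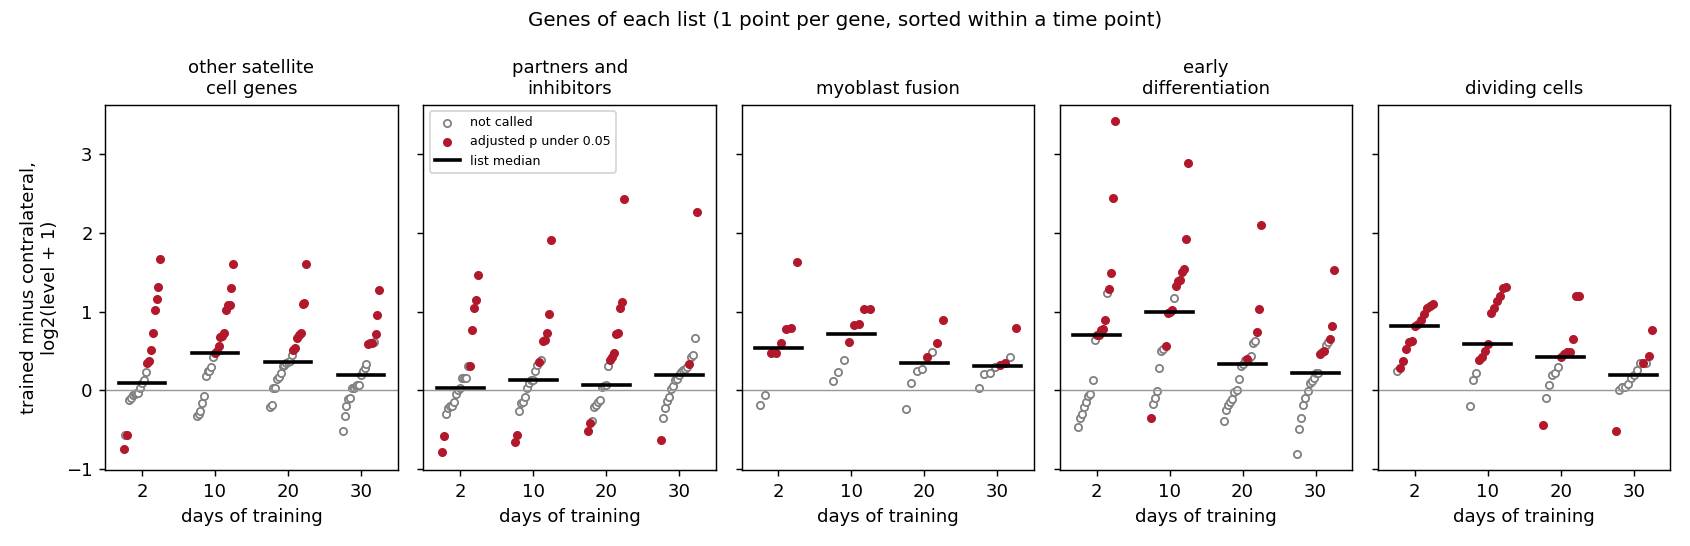
Difference of trained from contralateral muscle (12 controls) in log2(level + 1) for each tested gene of 5 lists at 4 time points, filled where the adjusted p is under 0.05, with the list median as a bar. Klhl40 (3.42 at 2 days) and Id4 (2.44 at 20 days) are the highest points of their lists, and the medians of the dividing-cell genes lie at 0.81, 0.59, 0.42 and 0.20.

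Markers of other cells moved with training, and their part in the results above was not tested. The shares of all genes called higher were 15.4%, 15.6%, 11.7% and 11.1% after 2, 10, 20 and 30 days. Which markers passed the filter only through trained muscle was not separated, so no excess over these shares is read from their counts. Of 6 fibro-adipogenic markers 4, 6, 6 and 6 were higher, and their summed level was 321 to 1021 in trained and 89.7 to 276 in contralateral muscle. Of 7 macrophage markers 6 were tested and 5, 6, 6 and 6 were higher, with sums of 21.4 to 55.4 against 6.80 to 17.7. Markers of the muscle fiber (Acta1, Ckm, Tnnt3, Tnni2, Myh4 and Pvalb), which define the tissue, summed to 51016 to 85890 against 74779 to 86530. Of these 6 genes 2, 4, 4 and 3 were lower (13.5%, 13.3%, 9.64% and 9.46% of all genes) and 0, 1, 0 and 0 higher. Within animals 1, 3, 2 and 2 were lower, where 21.6%, 20.1%, 17.4% and 12.3% of all genes were called in either direction. The 5 satellite cell markers (Pax7, Cdh15, Myf5, Calcr and Chodl) summed to 6.27 to 11.1 in trained and 6.48 to 11.8 in contralateral muscle, so the sums overlapped. Over all rats within animals Cdh15 was higher, at the threshold, and Chodl lower. The overlap therefore does not mean that each marker was unchanged. Endothelial sums were 33.6 to 74.6 against 31.4 to 47.0, those of smooth muscle and pericytes 63.5 to 113 against 55.5 to 89.3, of Schwann cells 3.49 to 15.2 against 3.39 to 16.5 and of adipocytes 3.23 to 9.49 against 1.31 to 5.05. The summed T cell markers reached at most 0.724 and the neutrophil markers at most 2.77, with libraries at 0 for either, and 0 of either passed the filter.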

How the data were processed

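Poly-A RNA of 24 muscles (12 rats, 3 per time point, trained left and contralateral right) was sequenced by the authors, aligned to rn6 with STAR and quantified per transcript in Partek, per the labels and the methods. The deposited table of 20027 transcripts is described as DESeq2-normalized, but its values sum to the same total in every library and follow transcript length, so they were read as TPM deposited by the authors. A second table deposited by the authors holds normalized gene-level signal for 4635 genes and served as an alternative. Columns of fold changes and p-values from the authors' comparisons were not used. No column was left without a sample (0), and 0 of 276 pairs of libraries were identical.

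Transcripts were summed per gene symbol. Each library was divided by the median ratio to the geometric mean over 16230 transcripts (0.778 to 1.14). Genes with a level of at least 1 in at least 3 muscles (11196) were tested on log2(level + 1) with limma 3.58.1 in R 4.3.3 with Benjamini-Hochberg adjustment and a threshold of 0.05. The fit held 4 trained groups and the 12 contralateral muscles as 1 group. Alternatives were a fit within animals (animal as block), time-matched controls, values as deposited, a pseudocount of 0.1, no filter, another scaling factor, the transcript with the highest mean, an intensity trend and leaving out muscles. The tables hold no counts, so count models were not the main test. Added after seeing the data were limma-voom on whole reads (tolerance 0.05, recovered for 10234 genes; 83.7% of 3143 low genes with 1 transcript came out whole; 8182 genes fitted) and the gene-level table. Read ratios carry exact 95% intervals for counting error only. On simulated data with 200 genes changed by 1.5, 98.3% were recovered and 4.84% of calls were false for the comparison at 2 days.

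The labels' animal numbers pair the muscles of a rat: the median correlation of deviations from the group means was 0.174 over 12 same-animal pairs and -0.00964 over 132 other pairs. Each group is 3 separate rats. The 6 genes and all lists were chosen with earlier results of these data known. From each list the 4 called genes with the largest difference were named, and any others are marked. Some results are not reported here. The series text speaks of 4 animals per time point, and 3 were analysed here. E-boxes (CANNTG) and MEF2 motifs were searched by letters.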

Additional observations from a re-analysis of the deposited data

Results flagged for a closer look

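Myog differed between time points in its within-animal response: the difference of the trained from the contralateral muscle was lower at 30 days than at 2 days by -1.87 on the log2 scale (limma with animal as a block, interaction contrast, adjusted p = 0.0485). The response within animals measured 1.60 after the shorter training and -0.27 after the longer. All 3 rats were higher on the trained side at 2 days (0.35, 2.40 and 2.04) and all 3 lower at 30 days (-0.16, -0.57 and -0.08). The contrast of 30 with 2 days called 314 of 11196 genes, and the F test over the 4 time points did not pass for Myog (adjusted p = 0.101 in limma). The test for single muscles far from their group was not applied to groups of 3 or 12.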

How the results depend on the processing

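Of 427 alternative values for the members, 362 kept direction and side of the threshold, 30 lost the call, 8 gained it and 27 changed sign, and the cause was not tested. Myog and Myf6 at 2 days were called in every alternative run. Within animals (replicate block) and with time-matched controls Myf5 was 0.36 at 2 days and 0.42 at 10 days, both uncalled, Cdh15 was -0.040 at 2 days and 0.087 at 30 days, and Myf6 was 0.31 at 20 days and 0.19 at 30 days. The block called Cdh15 at 10 days (0.61) and Myf5 at 30 days (0.48, the 1 member then called). Myf5 entered that filtered fit only through its trained muscles. The block changed no other member's call against the controls. In contrasts with 2 days the block gave Cdh15 0.65, Myf5 0.060 and Myod1 -0.16 at 10 days, Cdh15 0.13 and Myf5 0.11 at 30 days, and 0 rather than 2 members differing over time. limma-voom with the block gave Myf5 0.72 and Cdh15 -0.032 at 2 days, Cdh15 0.80 (called) and Myf5 1.11 (uncalled) at 10 days, Myf6 0.31 at 20 days and Cdh15 0.075 and Myf6 0.19 at 30 days. Without the block it gave Myf6 0.0072 at 30 days. Values as deposited gave Myod1 0.011 and 0.039 at 2 and 10 days and Myf6 0.69 (called) at 10 days, with 2 members called there. The gene-level table gave Myf6 0.65 (called) at 10 days and 0.034 at 30 days. Myf5 at 10 days was 0.40 but uncalled with no filter, with the top transcript and with an intensity trend, so that 0 members were called there, as with time-matched controls. Cdh15 over 12 pairs was uncalled as deposited (0.24), with no filter, no replicate block or the top transcript (0.24) and with a pseudocount of 0.1 (0.29).

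Leaving out 1 muscle or pair gave Myf5 0.44 to 0.61 at 2 days and 0.23 to 0.61 at 10 days, Myf6 0.41 to 0.89 at 10 days and -0.16 to 0.11 at 30 days, Myod1 -0.32 to 0.016 at 2 days and -0.15 to 0.0045 at 10 days, Cdh15 -0.25 to 0.027 at 30 days, and over 12 pairs Cdh15 0.16 to 0.29, Myog 0.18 to 0.43 and Myod1 -0.38 to -0.15. Members called, Myf5 included (3 at 2 days, 1 at 10 days and 3 over 12 pairs with all muscles), then numbered 2 to 3 at 2 days, 0 to 2 at 10 days and 2 to 3 over 12 pairs. Genes called ranged from 1513 to 3505 at 2 days (3235 with all muscles), 2147 to 3233 at 10 days (3240), 1734 to 2401 at 20 days (2393), 1472 to 2440 at 30 days (2304) and 4359 to 4759 over 12 pairs (4862). With time-matched controls they numbered 2007, 1589 and 1121 at 10, 20 and 30 days, and with the block 1377 at 30 days. Depth limits Pax7 and Myf5, whose reads per library number at most 10 and 28.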
